A study of Mus musculus with 3 samples.

Results

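Lcn2, Cp, Crp, Pigr, Wfdc18, Msmp, Ltb, Sbspon and Ces1d are 9 of the 31053 genes in the feature list of a single-cell data set of mouse islets of Langerhans. They were chosen by their measured UMI levels in pancreatic duct cells of these 3 mice, so their duct levels are given as a description, with no test. Duct cells were defined as cells with at least 2 unique molecular identifiers (UMIs, each a tag for 1 captured RNA molecule) of Spp1 and with a UMI for at least 2 of the 5 genes Krt19, Sox9, Cftr, Muc1 and Mmp7. This definition kept 272 of 7173 cells, namely 49 of 1090 in mouse 1, 100 of 2609 in mouse 2 and 123 of 3474 in mouse 3. None of the 9 genes was part of it.

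The islets came from 3 non-diabetic female NOD-SCID mice of 10 to 11 weeks, which all carry the SCID defect and so lack mature T and B cells. Each mouse gave 1 library, the mice form 1 group, and no treatment, injury or Cre driver is named for them. Islets were freed by collagenase given through the bile duct, purified on a density gradient and dissociated with TrypLE, so the duct cells are those that came along with the islets. All comparisons below lie between cells of the same mice.

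Pancreatic ducts carry acinar enzymes to the gut, secrete bicarbonate and mucus, and form a barrier to bacteria that may enter from the intestine. Duct and other barrier epithelia make antibacterial proteins such as lipocalin 2, and carry antibody into secretions with the polymeric immunoglobulin receptor. Acute phase proteins such as ceruloplasmin and C-reactive protein are known best from the liver, where cytokines that act through STAT3, NF-kB and C/EBP factors raise their output.

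The promoters of the genes on which the results turn are shown first. Lcn2 and Ltb were both highest in the duct cells of mouse 3. Msmp and Wfdc18 were found together in 1 of 48, 5 of 96 and 3 of 119 duct cells at 2000 UMIs per cell. No number expected from the share of each gene was worked out. Each window runs 5′ to 3′ on the gene's own strand, from 250 bases before to 50 bases after a RefSeq transcript start (GRCm38.p6). Capitals mark matches on either strand to 5 motifs: STAT (TTCNNNGAA), C/EBP (TTNNGCAA), AP-1 (TGANTCA), the TATA box (TATAAA) and NF-kB.
Lcn2, chr2:32387690-32387989, minus strand: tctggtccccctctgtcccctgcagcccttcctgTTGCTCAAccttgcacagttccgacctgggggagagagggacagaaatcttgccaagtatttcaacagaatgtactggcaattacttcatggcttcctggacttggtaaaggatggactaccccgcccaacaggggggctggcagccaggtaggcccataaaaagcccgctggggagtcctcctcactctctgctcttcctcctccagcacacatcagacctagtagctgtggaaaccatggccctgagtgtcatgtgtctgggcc
Ltb, chr17:35194257-35194556, plus strand: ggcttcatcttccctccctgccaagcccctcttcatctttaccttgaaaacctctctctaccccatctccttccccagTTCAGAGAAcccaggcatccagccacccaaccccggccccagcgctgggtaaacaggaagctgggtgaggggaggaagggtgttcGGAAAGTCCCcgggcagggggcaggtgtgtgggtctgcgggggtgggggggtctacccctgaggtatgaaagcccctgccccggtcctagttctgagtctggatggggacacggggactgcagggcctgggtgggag
Msmp, chr4:43584445-43584744, minus strand: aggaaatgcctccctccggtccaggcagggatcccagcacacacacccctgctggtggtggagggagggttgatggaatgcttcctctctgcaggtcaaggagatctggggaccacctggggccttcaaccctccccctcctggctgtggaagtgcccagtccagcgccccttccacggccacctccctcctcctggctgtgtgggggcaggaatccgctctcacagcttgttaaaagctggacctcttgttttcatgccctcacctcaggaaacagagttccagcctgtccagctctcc
Wfdc18, chr11:83708754-83709053, plus strand: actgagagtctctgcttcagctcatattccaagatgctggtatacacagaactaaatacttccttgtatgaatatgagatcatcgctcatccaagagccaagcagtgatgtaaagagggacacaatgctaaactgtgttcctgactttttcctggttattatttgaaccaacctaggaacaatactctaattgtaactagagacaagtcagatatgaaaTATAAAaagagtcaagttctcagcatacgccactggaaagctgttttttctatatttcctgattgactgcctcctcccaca
The Lcn2 window held 1 C/EBP match at base 35, the Ltb window a STAT match at base 79 and an NF-kB match at base 164, and the Wfdc18 window a TATA match at base 220. No match to these motifs was found in the Msmp window. Among 32851 promoter windows of the same length, 10.8% held the C/EBP motif, 8.30% the STAT motif, 4.79% the NF-kB motif and 13.6% the TATA motif. In all, 7 of the 9 genes had a window. Of those not printed, the Pigr window held a STAT match at base 290, the Crp window an AP-1 match at base 54 and a TATA match at base 220, and one of 2 Cp windows an AP-1 match at base 74, a motif held by 7.81% of all windows. The other Cp window held a C/EBP match at base 181 and overlapping TATA matches from bases 224 and 226. Sbspon and Ces1d had no window in the table.

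The duct cells carried their defining genes in every mouse. All 9 markers of a duct list that includes Krt7 and Ambp had UMIs in each mouse, with summed levels of 18608, 18235 and 22182 CPM (UMIs per 1000000 UMIs of the class) in mice 1, 2 and 3. The cells held medians of 12808, 9014.5 and 11860 UMIs, and 1322757, 2195997 and 1818922 UMIs in all. RNA of other cells was present besides. Summed acinar markers stood at 1839, 21982 and 810 CPM, and summed beta cell markers at 39648, 100661 and 6765 CPM, so both were highest in mouse 2. Alpha cell markers stood at 1607, 20260 and 2991 CPM and gamma cell markers at 265, 266 and 7950 CPM. Cells with more UMIs weigh more in these sums. In an unsupervised clustering, 247 duct cells lay in the duct-like cluster and 19 in acinar-like clusters, and all of these 19 came from mouse 2. No UMI of 7 neutrophil markers or of 6 NK cell markers was found in duct cells. The levels below are CPM of the UMIs summed over the cells of a class within a mouse, and means are over the 3 mice with their SD. Counts are of 3′ ends, and levels are not compared between genes.

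At the edge of the definition, 60 duct cells carried exactly 2 of the 5 genes, with a median of 5135 UMIs. In them Lcn2 stood at 202 CPM, Cp at 543 CPM and Msmp at 649 CPM. Just outside it, 148 cells had Spp1 but 1 of the 5 genes, a median of 3171.5 UMIs, and 73.3 CPM of Lcn2, 109 CPM of Cp and 156 CPM of Msmp.

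Lipocalin 2, the product of Lcn2 (chr2:32384633-32388252, minus strand, GRCm38), binds bacterial siderophores and so withholds iron from bacteria. Its level in duct cells was 531 CPM in mouse 1, 446 CPM in mouse 2 and 1739 CPM in mouse 3 (906 ± 723, SD, n = 3 mice). Mouse 3 stood apart, and the mean without it was 489 CPM. A UMI of Lcn2 was seen in 81.6% of the duct cells of mouse 1 (exact 95% binomial interval 68.0% to 91.2%), 76% of mouse 2 (66.4% to 84.0%) and 91.9% of mouse 3 (85.6% to 96.0%). In endothelial-like cells, with medians of 9234, 5250 and 4255 UMIs, 0 of 49, 0 of 87 and 1 of 245 cells carried one, where a count of 0, taken as up to 3 cells, allows shares of up to 6.12% and 3.45%. With depth held at 2000 UMIs per cell, the expected shares in duct cells were 56.1%, 46.0% and 75.5%. Intervals cover counting error only.

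The polymeric immunoglobulin receptor, Pigr (chr1:130826684-130852249, plus strand), carries dimeric IgA across epithelia, here in mice without the mature B cells that make it. Pigr stood at 582, 401 and 265 CPM in mice 1, 2 and 3 (416 ± 159). It was lowest in mouse 3, where Lcn2 was highest. Its expected share of cells at 2000 UMIs was 34.3%, 28.3% and 24.1%, against 0 of 49, 0 of 87 and 0 of 245 endothelial-like cells before thinning.

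Wfdc18 (chr11:83709015-83711348, plus strand) encodes a small secreted protein with a WAP domain, the fold of several proteinase inhibitors. Its duct level was 583 CPM in mouse 1, 1614 CPM in mouse 2 and 1718 CPM in mouse 3 (1305 ± 628). Mouse 1 was low, and the share of its duct cells with a UMI, 44.9% (30.7% to 59.8%), was also below the 70.7% of mouse 3 (61.9% to 78.6%). In endothelial-like cells 0, 0 and 1 cells carried a UMI.

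Msmp (chr4:43583216-43584494, minus strand) encodes a small secreted microseminoprotein, and the human protein is known as a ligand of the chemokine receptor CCR2. It stood at 2874, 2215 and 1556 CPM (2215 ± 659), highest in mouse 1 and lowest in mouse 3. Only 22.0% of the duct cells of mouse 3 carried a UMI of it (14.99% to 30.3%), against 49.0% in mouse 1 (34.4% to 63.7%) and 48% in mouse 2 (37.9% to 58.2%). Endothelial-like cells with a UMI numbered 1, 3 and 4.

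Ltb (chr17:35194439-35196320, plus strand) encodes lymphotoxin beta, a membrane-bound cytokine of the TNF family that lymphocytes and innate lymphoid cells use to organise lymphoid tissue. Its duct level was 44.6 CPM in mouse 1, 69.7 CPM in mouse 2 and 172 CPM in mouse 3 (95.5 ± 67.5). As for Lcn2, mouse 3 was highest, and the mean without it was 57.1 CPM. The duct cells themselves had few lymphoid markers: 2 of 7 T or innate lymphoid markers had a UMI in each mouse, at 3.02, 2.28 and 8.80 CPM in sum, and Cd3e and Cd3d were at 0 in all 3. Lta, the usual partner of Ltb, stood at 0.756, 0 and 0.550 CPM, and Ltbr, the receptor, at 49.1, 22.3 and 37.4 CPM.

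Ceruloplasmin, Cp (chr3:19957054-20009145, plus strand), is a copper-carrying ferroxidase of plasma. It was the steadiest of the 9 genes relative to its mean, with 1950, 1533 and 1727 CPM (1736 ± 209), and 89.8%, 86% and 96.7% of duct cells carried a UMI. C-reactive protein, Crp (chr1:172698055-172833031, plus strand), binds phosphocholine on bacteria and dying cells, and is a weaker acute phase protein in mice than in humans. It stood at 207, 180 and 240 CPM (209 ± 29.7). For both genes the mice lay within a narrow range.

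Sbspon (chr1:15853862-15892722, minus strand), a matrix protein with somatomedin B and thrombospondin domains, stood at 341, 186 and 186 CPM (238 ± 89.3). Ces1d (chr8:93166068-93197838, minus strand), a carboxylesterase that cleaves fatty esters in liver and fat, stood at 488, 374 and 381 CPM (414 ± 63.6). Both were highest in mouse 1. Ces1d belongs to a cluster of similar genes, so reads of Ces1d may be divided among them or lost. Among its relatives in the feature list, Ces2g was found at 71.8, 55.6 and 60.5 CPM and Ces1b at 3.78, 16.4 and 1.65 CPM. Ces1d, Crp and Ltb each overlap another annotated gene on their own strand (Gm45909, Gm38051 and Mir6973a), and Cp, Msmp and Sbspon overlap genes on the other strand.

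**Figure D1:**
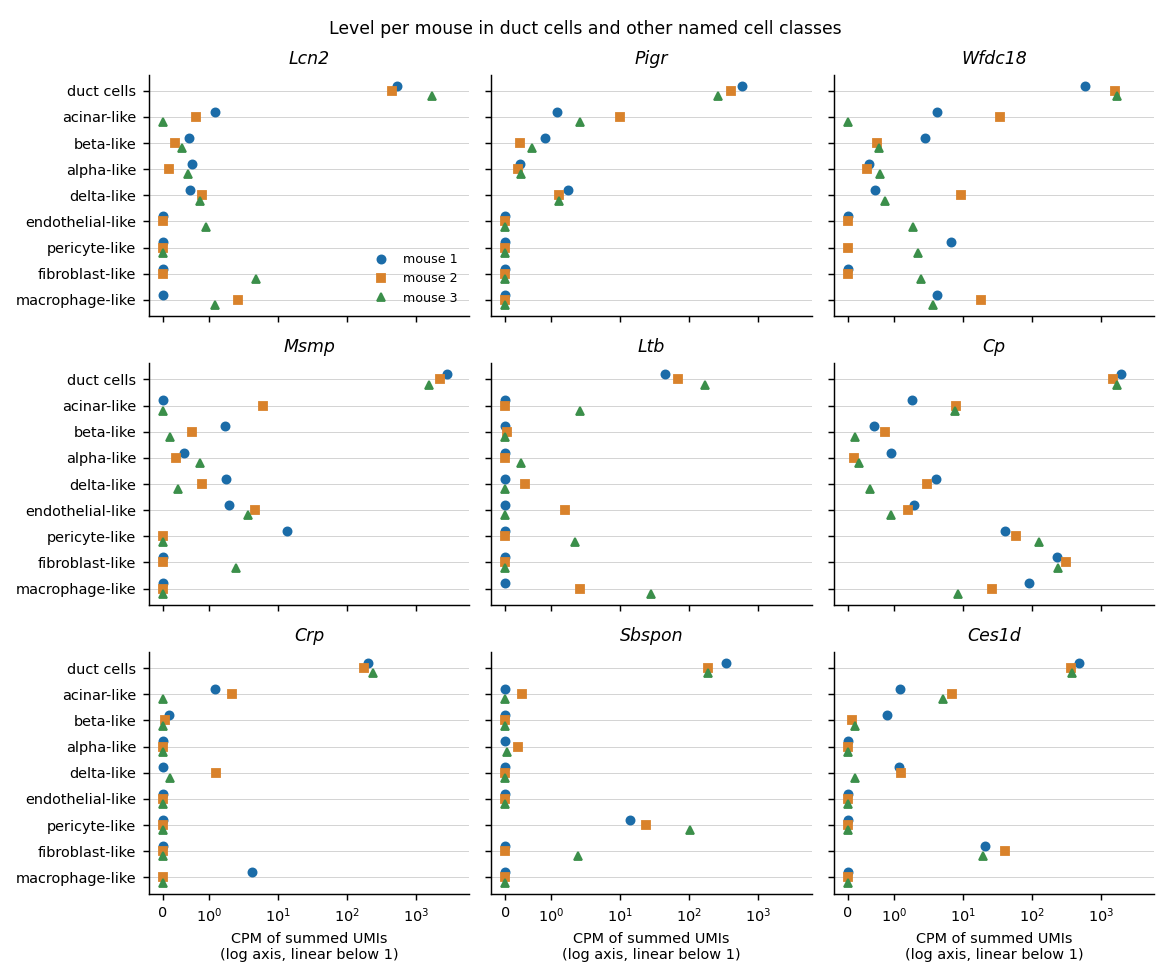
Level of each gene per mouse in duct cells and in 8 other named classes, as CPM of summed UMIs on an axis that is logarithmic above 1 and linear below it. Points are mice. Of the classes shown, every gene was highest in duct cells in each mouse, and Cp in fibroblast-like cells (230 to 311 CPM) and Sbspon in pericyte-like cells (13.7 to 102 CPM) were the next highest.

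Next to the defined duct cells came 166 cells of the duct-like cluster that missed the definition (51, 92 and 23 in mice 1, 2 and 3), with medians of 2615, 2757 and 1632 UMIs. In them Lcn2 stood at 203, 211 and 574 CPM, Wfdc18 at 461, 341 and 1382 CPM and Msmp at 400, 781 and 1063 CPM. Cp stood at 285, 422 and 893 CPM, Pigr at 94.9, 87.9 and 191 CPM and Ces1d at 190, 151 and 191 CPM. Crp stood at 81.3, 52.7 and 128 CPM and Sbspon at 61.0, 98.5 and 191 CPM. Ltb, with 1, 7 and 0 UMIs, stood at 6.78, 24.6 and 0 CPM. These levels lay below those of the defined duct cells in each mouse, except for Sbspon in mouse 3.

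Among the classes of other cell types, the genes differed in where they came next. Cp stood at 230, 311 and 238 CPM in the 6, 13 and 42 fibroblast-like cells (260 ± 44.8), a narrow range. Pericyte-like cells followed at 75.8 ± 44.9 CPM and macrophage-like cells at 41.9 ± 43.0 CPM, and these classes overlapped between mice. Sbspon came next in pericyte-like cells, at 13.7, 23.9 and 102 CPM, a range in which mouse 3 was far above the others. Ces1d stood at 20.9, 41.5 and 19.6 CPM in fibroblast-like cells (27.4 ± 12.3).

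For the remaining genes the levels outside the duct cells and the duct-like cluster were low and uneven. Lcn2, Crp, Pigr, Wfdc18 and Msmp reached their highest mean there in unnamed clusters, at 22.3 ± 19.8, 6.15 ± 6.31, 13.9 ± 24.1, 36.4 ± 52.4 and 27.9 ± 48.3 CPM, and each of them was at 0 there in at least 1 mouse. For Lcn2, Crp and Wfdc18 the 0 came from 2 cells of mouse 3 with 2440 UMIs, where 3 UMIs would be 1229.5 CPM, so it says little. In mouse 2, 1 cell of that cluster, led by Rbpjl, held 32 of its 33 Wfdc18 UMIs. For Msmp, 1 cell of the cluster led by Fabp7 held 14 of the 16 UMIs in mouse 1. Pigr stood at 4.55 ± 4.62 CPM and Wfdc18 at 13.2 ± 19.3 CPM in acinar-like cells. Barcodes with too few genes to be kept, taken as a measure of free RNA, carried 4.22, 5.97 and 18.5 CPM of Lcn2, 14.5, 33.5 and 8.90 CPM of Msmp and 8.86, 5.67 and 25.3 CPM of Wfdc18. The part of free RNA in these low levels was estimated only by subtraction, as given with the class comparisons.

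Ltb outside the duct cells was found mainly in mouse 3. An unnamed cluster led by Npy held 43.4 CPM there, and a cluster led by the MHC class II gene H2-Ab1 held 33.8 CPM. In mouse 3, 15 cells outside the duct class carried at least 3 of the 7 T or innate lymphoid markers, and all 15 had Ltb, with 71 UMIs and 553 CPM. Of these 15 cells, 9 lay in the cluster led by Npy, whose 455 cells in mouse 3 held 75 UMIs of Ltb in all. Il7r, the interleukin 7 receptor, was seen in 14 of them, Trbc2 in 12 and Gata3 in 11, while Cd3e and Cd3d were at 0. In mouse 1, 1 cell met the same rule and in mouse 2, 2 cells did, with no UMI of Ltb. Their markers differed from those of mouse 3: each had Cd3d, Cd2 and Trbc2, and none had Il7r or Gata3. All other cells of mouse 3 outside the duct class held 66 UMIs of Ltb, or 1.36 CPM.

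Class comparisons that leave the duct cells out were tested with edgeR's quasi-likelihood test on UMIs summed per mouse and class, with the mouse as a block and Benjamini-Hochberg adjustment over 12132 genes. All 9 genes passed the filter on low counts through their high duct sums, so they were tested here on few UMIs. The fits used a common estimate of spread over all classes, duct cells included. The calls, fold changes and adjusted p-values below describe these fits and give no support for a pattern of the 9 genes. The UMIs behind each call are given. Acinar-like cells had higher levels than beta-like cells for 7 of the 9 genes at an FDR of 0.05, where 13.3% of all genes tested were higher and 32.1% were called in either direction. Pigr was higher by 4.95 on the log2 scale (edgeR adjusted p = 1.76e-09, higher in 3 of 3 mice) on 30 UMIs in acinar-like and 20 in beta-like cells, and Ces1d by 5.57 (adjusted p = 1.54e-08, 3 of 3) on 23 and 10 UMIs. Cp was higher by 4.72 (edgeR adjusted p = 9.2e-04, 3 of 3) on 28 and 24 UMIs, with 22 of the 28 in mouse 2. Wfdc18 was higher by 5.55 (edgeR adjusted p = 9.53e-05, 2 of 3) on 104 and 42 UMIs. Of these 104, 97 lay in mouse 2 and 0 in mouse 3. These fold changes are TMM-scaled, and the acinar-like scaling factors of 0.153 to 0.403 against 0.533 to 0.641 in beta-like cells raise them. The median over all genes was -0.40. Without scaling, the ratio of levels pooled over mice was 13.0 for Pigr (exact interval 7.13 to 24.1, counting error only) and 19.9 for Ces1d (9.11 to 46.9).

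The other 3 calls also rested on few molecules. Crp had 8 UMIs in acinar-like cells, none of them in mouse 3, against 2 in beta-like cells, a ratio of pooled levels of 34.6 (6.91 to 335). Lcn2 had 4 UMIs against 15, and its pooled ratio of 2.31 had an interval of 0.558 to 7.24. Msmp was higher in 1 of 3 mice, had all of its 17 acinar-like UMIs in mouse 2, and turned to -0.05 on the log2 scale when expected free RNA was subtracted. Subtraction also ended the call for Lcn2, as did leaving out mouse 1 (2.45), and leaving out mouse 2 ended those for Lcn2, Cp, Pigr, Wfdc18 and Msmp, at 2.90, 4.69, 2.49, 2.89 and -5.13.

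Between macrophage-like and endothelial-like cells, 2 of the 9 genes were higher in macrophage-like cells (17.4% of all genes were), as tested with edgeR, while Sbspon, Pigr and Ces1d had 0 UMIs in both classes. Cp rose by 4.85 (adjusted p = 0.00396), with 38 UMIs against 3 and a pooled ratio of 19.6 (6.21 to 99.0), and was higher in 3 of 3 mice. Ltb rose by 5.40 (adjusted p = 6.67e-06), with 24 UMIs against 1 and a pooled ratio of 37.1 (6.04 to 1524). It was higher in 2 of 3 mice. Without mouse 3 the Ltb difference was 1.19 and was no longer called, and without mouse 2 the call for Cp was lost at 4.97. In the endocrine cells, 1 of 9 genes was lower in alpha-like than in beta-like cells, where 20.1% of all genes were. This was Ces1d, with 0 UMIs in 1412 alpha-like and 10 UMIs in 1552 beta-like cells (edgeR adjusted p = 0.00722). The call rests on these 10 UMIs and was lost without mouse 1, at -2.75, and after subtraction of free RNA, at -2.01. Between delta-like and beta-like cells 0 of 9 genes passed edgeR's test, where 33% of all genes were called in either direction.

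**Figure D2:**
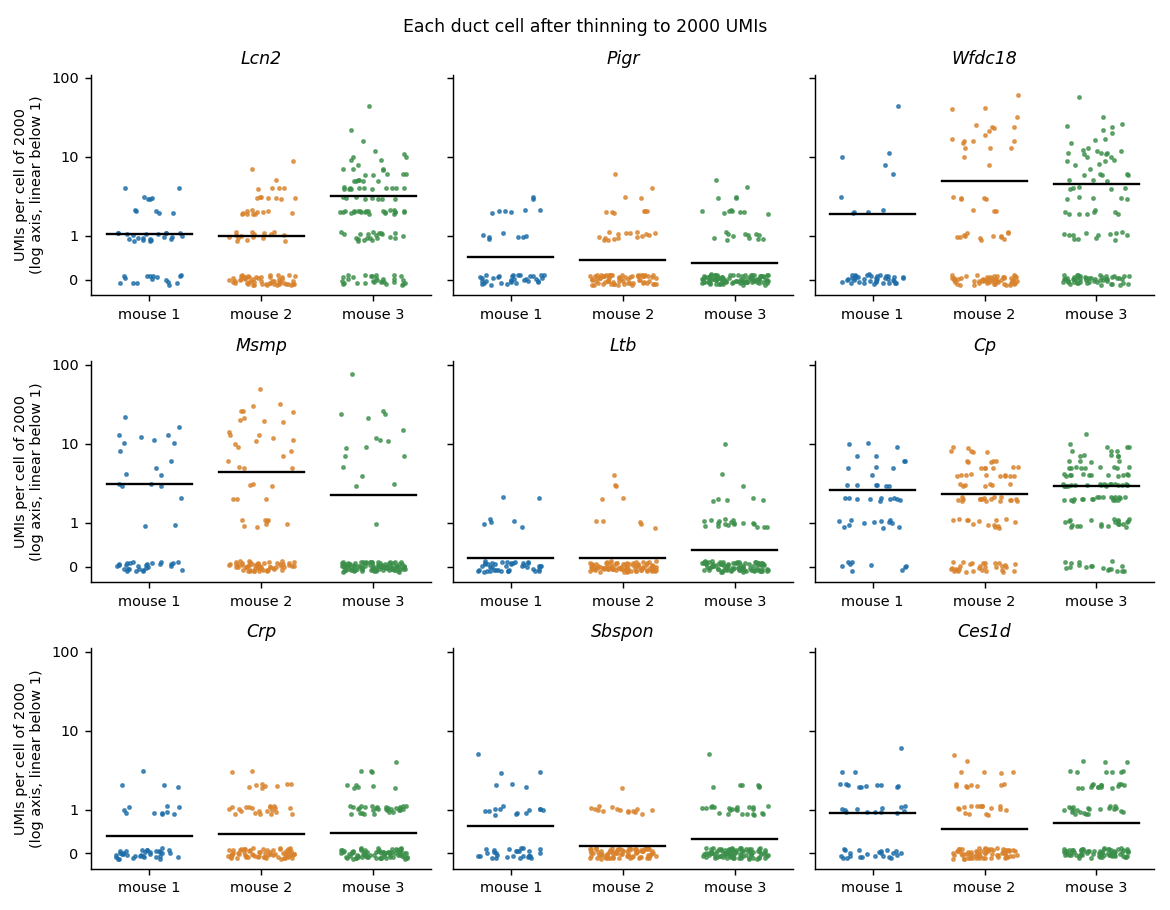
UMIs of each gene in every duct cell after thinning to 2000 UMIs per cell, on an axis that is logarithmic above 1 and linear below it. Points are cells, jittered sideways and slightly upwards, and bars are the mean per mouse. Msmp and Wfdc18 reached more than 20 UMIs in some cells and were at 0 in many others, whereas Cp is expected in 77.1%, 66.1% and 82.9% of cells at this depth.

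The 9 genes differed in how evenly the duct cells carried them. Spread was measured as the ratio of variance to mean of the UMIs expected when each of the 48, 96 and 119 duct cells with at least 2000 UMIs is thinned to 2000, where a Poisson count gives 1. The median over the 4903, 4580 and 5816 genes detected in at least 5% of these cells was 1.03, 1.04 and 1.02. Msmp had ratios of 9.51, 16.6 and 32.2, and Wfdc18 of 21.25, 20.01 and 14.07. These ranked 12, 22 and 3 for Msmp and 7, 19 and 6 for Wfdc18 among all genes detected. Spp1, the abundant secreted phosphoprotein of the definition, had 10.6, 13.5 and 13.9.

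By this ratio Lcn2 was most uneven in mouse 3. Its ratio was 1.67 and 2.78 in mice 1 and 2, and 9.23 in mouse 3, where it ranked 10. The ratio was not adjusted for level, and the means of Lcn2 were 1.07, 1.01 and 3.54 UMIs per 2000. The 10% of cells richest in Lcn2 held 30.1%, 45.6% and 42.4% of it, so by this share mouse 3 did not stand apart. The median duct cell with at least 2000 UMIs held 385, 299 and 1026 CPM of Lcn2. In mouse 3, 60 cells were at or above 1000 CPM and 8 above 5000 CPM, up to 24266 CPM, while no cell of mice 1 and 2 passed 5000 CPM.

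The other 6 genes had smaller ratios than Msmp and Wfdc18 in each mouse, though the ratio was not adjusted for level. Cp had ratios of 2.95, 2.89 and 2.37, Pigr 1.91, 1.74 and 1.90, and Ltb 1.21, 2.62 and 2.53. Crp stood at 1.10, 1.25 and 1.23, Sbspon at 1.33, 1.28 and 1.56, and Ces1d at 1.27, 1.44 and 1.67. The 10% of cells richest in a gene held 52.5%, 63.2% and 90.5% of the Msmp UMIs and 83.1%, 60.2% and 53.2% of the Wfdc18 UMIs. For Cp they held 29.9%, 29.9% and 24.7%, and for Pigr, Crp, Sbspon and Ces1d from 23.9% to 49.0%. For Ltb they held 58.3%, 82.8% and 55.2%, at means of 0.146, 0.221 and 0.360 UMIs per 2000. The small ratios of Ltb thus do not show that duct cells carried it evenly. Before thinning, 24, 49 and 93 of these 48, 96 and 119 cells had no UMI of Msmp and 26, 40 and 33 had none of Wfdc18, against 5, 12 and 4 without Cp.

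**Figure D3:**
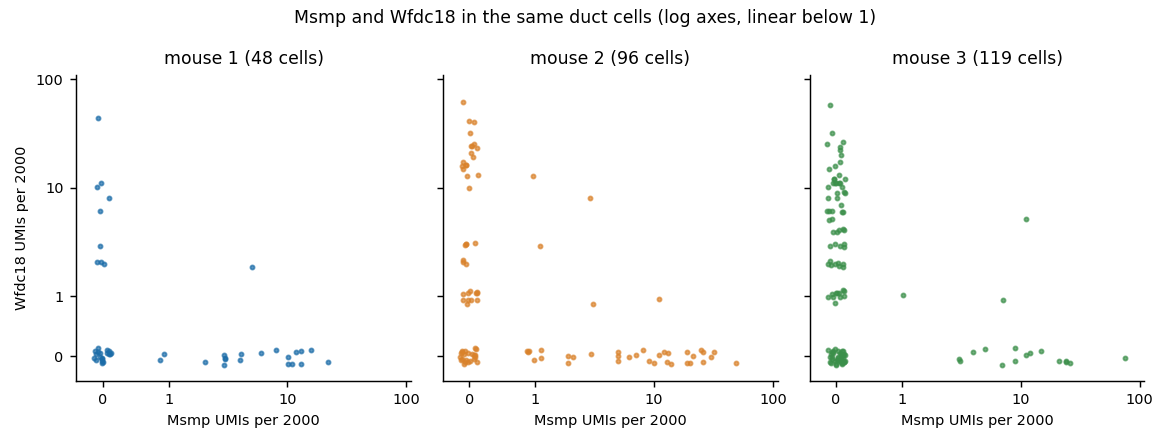
Msmp against Wfdc18 UMIs in each duct cell after thinning to 2000 UMIs, on axes that are logarithmic above 1 and linear below it. Points are cells with slight jitter, 1 panel per mouse. Most cells lie along the axes. In mice 1, 2 and 3, 1, 5 and 3 cells carry both genes and 19, 22 and 38 carry neither.

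At equal depth, most duct cells with Msmp or Wfdc18 carried 1 of them alone in all 3 mice. The number of cells with both that the share of each gene would give was not worked out. The counts alone therefore do not show that the genes exclude each other. After thinning, Msmp without Wfdc18 was found in 19 of 48 cells of mouse 1 (39.6%, exact interval 25.8% to 54.7%), 33 of 96 of mouse 2 (34.4%, 25.0% to 44.8%) and 15 of 119 of mouse 3 (12.6%, 7.23% to 19.9%). Wfdc18 without Msmp was found in 9 (18.8%, 8.95% to 32.6%), 36 (37.5%, 27.8% to 48.0%) and 63 cells (52.9%, 43.6% to 62.2%). Cells with both numbered 1, 5 and 3, and cells with neither 19, 22 and 38. Msmp-only cells were thus most frequent in mouse 1 and Wfdc18-only cells in mouse 3.

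The cells with Msmp alone had more RNA before thinning, with medians of 49603, 23680 and 28842 UMIs against 12808, 8778.5 and 11632 in those with Wfdc18 alone. Of the Wfdc18-only cells, 0, 9 and 1 lay outside the duct-like cluster, and of the Msmp-only cells 0, 3 and 0. Acinar markers summed to 3158, 19955 and 733 CPM in Msmp-only cells and to 4444, 71458 and 1214 CPM in Wfdc18-only cells, and beta markers to 24342, 35818 and 5067 against 57167, 57292 and 10619 CPM. Hepatocyte markers went the other way, at 500, 758 and 633 against 278, 97.2 and 39.7 CPM. Their part in the differences below was not tested. In cells of the duct-like cluster alone, the numbers of Msmp-only and Wfdc18-only cells were 19, 30 and 15 and 9, 27 and 62. Without thinning, cells with both numbered 7, 13 and 9, beside 17, 35 and 18 with Msmp alone and 15, 44 and 78 with Wfdc18 alone.

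**Figure D4:**
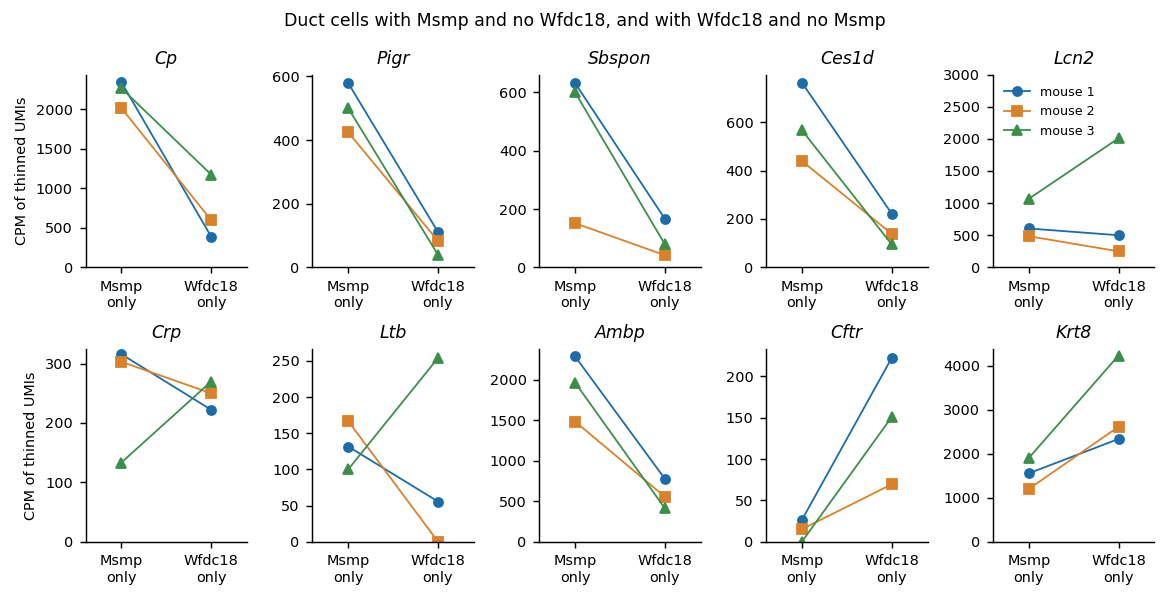
Levels per mouse in duct cells with Msmp and no Wfdc18 and in duct cells with Wfdc18 and no Msmp, as CPM of thinned UMIs on linear axes that start at 0. Lines join the values of a mouse, and low values rest on few UMIs. Cp, Pigr, Sbspon, Ces1d and Ambp were higher in Msmp-only cells in each mouse, Cftr and Krt8 in Wfdc18-only cells, and Lcn2, Crp and Ltb lay in a different order in mouse 3.

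Several of the 9 genes went with Msmp. Because these cells were sorted by genes measured in the same cells, the values are a description. Cp stood at 2342, 2015 and 2267 CPM in Msmp-only cells and at 389, 597 and 1175 CPM in Wfdc18-only cells. Pigr stood at 579, 424 and 500 against 111, 83.3 and 39.7 CPM, and Ces1d at 763, 439 and 567 against 222, 139 and 95.2 CPM. For these 3 genes the cell groups did not overlap across mice. No share of all genes is given beside this or the orders below, so neither is read as particular to these genes.

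Sbspon was higher in Msmp-only cells within each mouse, at 632, 152 and 600 against 167, 41.7 and 79.4 CPM, and its groups overlapped. These 4 genes were higher in the Msmp-only cells of each mouse also in the duct-like cluster alone, without thinning and in a second random draw. Ambp, which encodes a precursor of the proteinase inhibitor bikunin, went the same way at 2289, 1485 and 1967 against 778, 556 and 413 CPM. The chloride channel gene Cftr went the other way, at 26.3, 15.2 and 0 against 222, 69.4 and 151 CPM, as did the keratin Krt8, at 1553, 1197 and 1900 against 2333, 2611 and 4230 CPM. The duct factor Sox9 was at similar levels in both, at 605, 394 and 567 against 556, 514 and 492 CPM.

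Lcn2, Crp and Ltb followed neither gene in all mice. Lcn2 stood at 605, 485 and 1067 CPM in Msmp-only cells and at 500, 250 and 2008 CPM in Wfdc18-only cells. Ltb stood at 132, 167 and 100 against 55.6, 0 and 254 CPM, and Crp at 316, 303 and 133 against 222, 250 and 270 CPM. In each case mice 1 and 2 were higher in Msmp-only cells and mouse 3 in Wfdc18-only cells. The order in mice 1 and 2 was not stable. In mouse 1 Lcn2 stood at 457 against 595 CPM without thinning and at 275 against 591 CPM in the second draw, and Ltb at 37.7 against 75.5 CPM without thinning. In mouse 2 Crp stood at 156 against 207 CPM in the second draw.

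Correlations across the thinned duct cells used the same draw that sorted the cells above, so they are no separate support. They are a description, since the cells of a mouse share a library and low counts lower every value. Msmp was above 0 with Cp, Pigr, Sbspon and Ces1d in every mouse. With Pigr it was above 0.2 in each (0.54, 0.29 and 0.32). Its lowest values were 0.19 with Cp, 0.15 with Sbspon and 0.19 with Ces1d. Of 36 gene pairs, 13 were above 0 in all 3 mice and 5 below 0. The pairs above 0.2 in every mouse included Cp with Pigr (r = 0.42, 0.38 and 0.25 over 48, 96 and 119 cells), Cp with Ces1d (0.34, 0.37 and 0.34) and Pigr with Sbspon (0.47, 0.34 and 0.25). Wfdc18 stood at -0.30, -0.41 and -0.31 with Msmp and at -0.39, -0.28 and -0.34 with Cp, and these 2 pairs were the ones below -0.2 in every mouse. Lcn2 with Ltb gave -0.07, 0.38 and 0.22.

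Beside Lcn2 and Ltb, other genes of inflammatory signalling were highest in the duct cells of mouse 3. This was looked at after the levels of Lcn2 and Ltb had been seen, no label sets mouse 3 apart, and the counts below are a description. Of 6438 genes with a mean of at least 20 CPM in duct cells, 3533 (54.9%) were highest in mouse 3, and 161 (2.50%) were at least 2-fold above both other mice. Of the 9 genes, 4 were highest in mouse 3 and 2, Lcn2 and Ltb, were at least 2-fold above both others. Among epithelial chemokines and cytokines 7 of 7 were highest in mouse 3, 6 of them by at least 2-fold. Among genes of NF-kB, IL-17 and STAT3 signalling 13 of 15 were, 4 of them by at least 2-fold. Of defence and mucus genes 6 of 9 were highest there and of acute phase genes 1 of 2, with 2 and 1 by at least 2-fold. For iron and copper genes it was 3 of 7, for the lymphotoxin system 1 of 2 and for IgA and secretory genes 1 of 6. In these last lists 0 were at least 2-fold above both other mice.

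The NF-kB inhibitor gene Nfkbia, itself an NF-kB target, stood at 559, 504 and 1301 CPM, and Nfkbiz, which with NF-kB drives Lcn2 in other mouse cells, at 126, 90.6 and 323 CPM. The monocyte chemokine Ccl2 stood at 9.83, 14.6 and 289 CPM and the neutrophil chemokine Cxcl1 at 159, 111 and 460 CPM. Complement C3 stood at 157, 147 and 450 CPM, whereas Lbp, which hands bacterial lipopolysaccharide to Cd14, stood at 176, 129 and 175 CPM. In each of these but Lbp, mouse 3 was above the others.

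Genes that respond to dissociation were also highest in mouse 3, in 15 of 16 cases and 2 of them by at least 2-fold, with Fos at 4495, 3283 and 5668 CPM and Jun at 3957, 3158 and 5243 CPM. Duct identity genes were highest there in 16 of 18 cases, 6 of them by at least 2-fold, and summed acinar and beta markers were lowest there. Summed gamma cell markers were highest there. The part of these in the levels of Lcn2 and Ltb was not tested.

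Other acute phase and defence genes were present in part. Beside the 6438 of 31053 genes with a mean of at least 20 CPM in duct cells, 2 of 19 acute phase genes, 9 of 24 defence and mucus genes and 7 of 16 iron and copper genes reached that level. Of 19 acute phase genes other than those of the 9, 2 reached 50 CPM in the duct cells of every mouse (C3 and Lbp) and 5 were at 0 in all, with haptoglobin, Hp, at 1.512, 0.911 and 2.199 CPM and Saa3 at 0, 0 and 1.10 CPM. Of 24 defence and mucus genes, 6 reached 50 CPM in every mouse, among them Clu, a secreted chaperone, at 13774, 9173 and 14005 CPM, and Wfdc2, a relative of Wfdc18, at 135, 114 and 302 CPM. Of 16 iron and copper genes 5 reached 50 CPM in every mouse, with the ferritin gene Fth1 at 8160, 6987 and 9336 CPM and transferrin, Trf, at 273, 92.4 and 162 CPM. No gene of the lymphotoxin system reached 50 CPM in every mouse, out of 10.

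**Figure D5:**
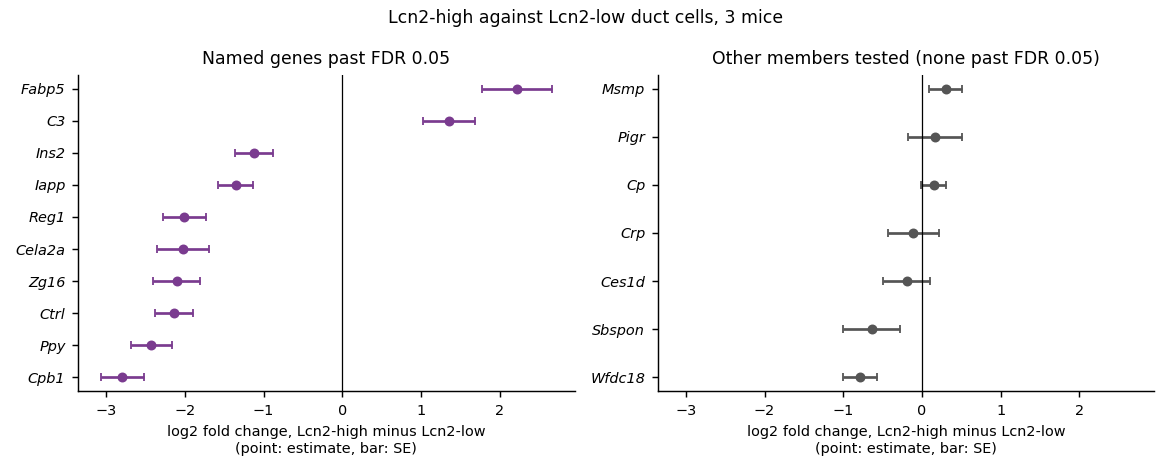
Log2 fold changes between Lcn2-high and Lcn2-low duct cells in edgeR's quasi-likelihood fit over 3 mice, for the named genes past an FDR of 0.05 and for the other members of the 9 genes that were tested. Points are estimates and bars their standard errors. Fabp5 (2.22) and C3 (1.35) are the named genes to the right of 0, and none of the 7 other members passed.

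Duct cells with much Lcn2 were compared with those with little in the same mouse. Cells thinned to 2000 UMIs were divided at each mouse's median of Lcn2 UMIs, which gave 11, 41 and 45 Lcn2-high cells with 2 to 4, 1 to 9 and 3 to 44 UMIs of Lcn2. The 37, 55 and 74 Lcn2-low cells had 0 to 1, 0 and 0 to 2. Sums per mouse were tested with edgeR's quasi-likelihood test with the mouse as a block, and 14 of 1256 genes (1.11%) passed an FDR of 0.05, 2 of them higher (0.159%) and 12 lower (0.955%) in Lcn2-high cells. Unadjusted, 80 genes had p below 0.05.

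Fabp5, which encodes a fatty acid carrier of epithelia, was higher in Lcn2-high cells by 2.22 on the log2 scale (SE 0.44, edgeR adjusted p = 0.00725). Its TMM-scaled levels were 242, 286 and 354 CPM in Lcn2-high cells and 82.3, 63.4 and 58.6 CPM in Lcn2-low cells, with no overlap. Complement C3 was higher by 1.35 (SE 0.33, edgeR adjusted p = 0.0437), at 362, 556 and 816 CPM against 123, 95.1 and 452 CPM. The call was lost in 6 of 10 other settings for Fabp5 and in 6 of 15 for C3, each with the same direction. C3 was the sole acute phase gene to pass, of 2 tested in a list of 19, and none passed among the 5 tested defence genes, the 4 tested NF-kB, IL-17 and STAT3 genes, the 13 duct identity genes or the 15 dissociation genes.

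The genes lower in Lcn2-high cells were those of other pancreatic cells. They included the acinar enzyme genes Cpb1, by -2.80 (SE 0.27, edgeR adjusted p = 7.82e-07), Ctrl (-2.14) and Cela2a (-2.02), the acinar genes Zg16 (-2.10) and Reg1 (-2.01), and the islet hormone genes Ppy (-2.42), Iapp (-1.35) and Ins2 (-1.12). Each of these 8 was lower in 3 of 3 mice, and lost its call in 6 to 12 of the other settings. Spink1, Rnase1, Ctrc and Sycn also passed but lay the other way in 1 of 3 mice. Acinar markers summed to 3091, 18183 and 844 CPM in Lcn2-high cells against 5378, 88191 and 1203 CPM in Lcn2-low cells, and beta markers to 28545, 31634 and 8078 against 81081, 54236 and 10189 CPM. In mouse 2, 17 Lcn2-low and 2 Lcn2-high cells lay in acinar-like clusters. The part of these cells and of their RNA in the differences was not tested beyond leaving the cells out. With cells of other clusters left out, 4 genes passed, 2 of them higher and 2 lower.

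None of the 7 other members tested passed, where 1.11% of all genes did, and Ltb was too low to be tested. Wfdc18 differed most, by -0.78 (SE 0.21, edgeR adjusted p = 0.128), at 785, 2223 and 2598 CPM in Lcn2-high and 1584, 5531 and 2898 CPM in Lcn2-low cells, lower in 3 of 3 mice. It passed in 4 of 17 other settings, among them when mouse 3 was left out (-1.22, edgeR adjusted p = 9.38e-06) and when cells with any Lcn2 were set against cells with none (-1.36, edgeR adjusted p = 2.24e-06). Sbspon stood at -0.64 (SE 0.36), Msmp at 0.30 (SE 0.21), Ces1d at -0.19, Pigr at 0.16, Cp at 0.15 and Crp at -0.11, and the median over all genes was -0.0021. The sign for Crp, Pigr, Msmp, Sbspon and Ces1d turned under at least 1 other setting.

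Genes with a pattern like that of a member over the 27 sums of 9 classes and 3 mice were found by Pearson's r of log2(CPM + 10) among the same 6438 genes. Lcn2 was closest to Wfdc2 (r = 0.996), the sodium-glucose transporter gene Slc5a1 (0.994) and Dcdc2a (0.985). Crp was closest to Slc5a1 (0.994), Ppp1r1b (0.993) and Cldn2 (0.993), and Pigr to Scara3 (0.993), Aqp5 (0.992) and Ppp1r1b (0.991). Wfdc18 was closest to Dcdc2a (0.976), Msmp to 1700011H14Rik (0.990), Ces1d to 1700011H14Rik (0.995) and Sbspon to Smim5 (0.974). Cp, with its level in fibroblast-like cells left out of these sums for want of cells, was closest to Selenbp1 (0.957). All of these values rest largely on the contrast of duct cells with other classes.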

How the data were processed

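Single-cell 3′ libraries of islets of 3 mice were measured, 1 per mouse. The deposited matrices hold counts of UMIs per gene and barcode, per the file headers written by software version 3.1.0. Per the submitters' processing notes Cell Ranger 2.2 and mm10 were used. How the authors selected the deposited barcodes is not given in the sources used here. The libraries held 32389170, 48076507 and 57849496 UMIs over 6005, 4444 and 5713 barcodes. Mice 1 and 2 shared 148 barcodes, 14 of them kept in both, and mice 1 and 3 and mice 2 and 3 shared 9 and 13. No barcode was a duct cell in both mice that shared it.

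A cell was kept when it had 500 or more genes and no more than 15% of its UMIs from mitochondria. The highest Scrublet scores (scanpy 1.11.5) were removed as doublets at 0.8% per 1000 barcodes, which took out 55, 96 and 166 cells. Clusters came from 141 markers of 21 cell types (20 principal components, 20 neighbours, leidenalg 0.10.2, igraph 0.11.9, resolution 1, seed 1) and were named where at least 3 markers of a type were among the 30 leading genes. Levels are CPM of summed counts, unscaled except beside edgeR results, where they are scaled by TMM. Cells were thinned to 2000 UMIs by random draws, and shares and spread by exact expectation.

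Counts were summed per mouse and class for classes of 10 or more cells in each mouse, and were tested in R 4.3.3 with edgeR 4.0.16 by glmQLFTest after filterByExpr, TMM scaling and a robust glmQLFit, at a Benjamini-Hochberg FDR of 0.05. The p-values do not cover the error of making classes from the same cells. On simulated counts, changes of 2 on the log2 scale were recovered for 96.7% of the changed genes tested in the Lcn2 comparison. Recovery was 94.1% for acinar against beta, 73.8% for macrophage against endothelial, 100% for alpha against beta and 97.8% for delta against beta. False calls numbered 7, 7, 4, 3 and 6 in the same order. These rates are over all changed genes tested. They were not worked out for genes with as few UMIs as the members have outside duct cells, so they do not describe those tests. The simulated spread was not compared with that between the mice. Sums of the same mouse come from the same animal and were blocked. Their deviations from class means correlated at 0.337 to 0.786 within a mouse and at -0.786 to 0.019 between mice for the Lcn2 comparison, and at -0.019 to 0.593 and -0.508 to 0.119 for the classes. DESeq2 1.42.0 was an alternative, as were other filters, thinning depths, definitions of duct cells, subtraction of free RNA (estimated at 17.3%, 28.2% and 13.1% of barcode UMIs, from insulin genes) and leaving out each mouse. Named genes are all members, the 10 largest changes in each direction past the threshold that moved alike in 3 of 3 mice and reach 50 CPM, up to 4 genes per list, and the 3 most alike genes per member. The members, lists, rules and tests were chosen with earlier results of these data known. Gene positions are from GENCODE M21, which holds 31011 of the 31053 IDs. Other tools were matplotlib 3.10.9, scikit-learn 1.9.0, pandas 2.3.3, numpy 2.4.6, scipy 1.17.1 and Python 3.11.15. A few items that these rules name are not reported here.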

Additional observations from a re-analysis of the deposited data

Results flagged for a closer look

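Cp in fibroblast-like cells, a class left out of the tests for its few cells, stood above the level that 3 counts give in each mouse. It was at 230.3 CPM in mouse 1 (22 UMIs in 6 cells, 3 counts being 31.4 CPM), 311.4 CPM in mouse 2 (30 UMIs in 13 cells, 31.1 CPM) and 237.9 CPM in mouse 3 (97 UMIs in 42 cells, 7.36 CPM). Ces1d passed the same level in fibroblast-like cells of mouse 2, at 41.52 CPM (4 UMIs), and of mouse 3, at 19.62 CPM (8 UMIs). Ltb passed it in mouse 3 in unnamed clusters outside the tests, at 43.4 CPM in the cluster led by Npy (75 UMIs in 455 cells, 3 counts being 1.74 CPM) and at 33.85 CPM in the cluster led by H2-Ab1 (27 UMIs in 69 cells, 3.76 CPM).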

How the results depend on the processing

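The count of genes that differed between Lcn2-high and Lcn2-low duct cells, 14, depended on most choices. It was 38 with no filter on low counts, 3 with DESeq2's Wald test, 8 after thinning to 4000 UMIs, 6 with any Lcn2 against none, 38 with at least 5 UMIs of Spp1, 4 with cells of other clusters left out, and 6 to 36 with a mouse left out (36 without mouse 3, 6 without mouse 2). A second random draw of the 2000 UMIs, chosen after seeing the data, gave 9, with C3 still called at 1.82. Without the mouse as a block, 0 genes passed, and the class counts without this pairing were 3696, 4105, 3400 and 3023 for acinar, alpha and delta against beta and macrophage against endothelial. Leaving out a mouse gave 2177 to 3450 of 3896 genes for acinar against beta, 2930 to 4167 of 4619 for alpha against beta and 2599 to 3690 of 4002 for delta against beta. With at least 1000 genes per cell the acinar-like class was too small in 1 mouse. Directions that turned belong to genes that did not pass, other than Msmp between acinar-like and beta-like cells (-5.13 to 4.64 with a mouse left out, -0.054 with free RNA subtracted). Between Lcn2-high and Lcn2-low cells, leaving out a mouse gave -0.36 to 0.14 for Crp, -0.22 to 0.64 for Pigr, -0.13 to 0.51 for Msmp and -0.43 to 0.28 for Ces1d. Crp and Pigr stood at 0.57 and -0.68 with at least 1000 genes and at 0.077 and -0.43 with at most 10% mitochondrial UMIs, and Crp and Msmp at 0.30 and -0.49 with doublets kept. After thinning to 4000 UMIs Crp, Pigr, Msmp and Ces1d stood at 0.24, -0.10, -0.53 and 0.019, and with any Lcn2 against none Crp, Msmp and Ces1d at 0.17, -0.095 and 0.13. With 3 of the 5 duct markers Crp, Pigr, Msmp and Sbspon stood at 0.35, -0.63, -0.32 and 0.66, with at least 5 UMIs of Spp1 Crp, Pigr and Msmp at 0.41, -0.19 and -0.27, and without other clusters Pigr and Msmp at -0.79 and -0.69. The second draw gave 0.11, -0.17 and -0.24. The cause was not tested. Mean duct levels moved by over 1.5 times in Lcn2 (906 to 489 CPM) and Ltb (95.5 to 57.1 CPM), both without mouse 3. Between classes, levels of a few UMIs and the small classes limit what can be seen.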
